A study of Mus musculus with 4 samples.

Results

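The mitochondrial genome of the mouse carries 37 genes, and all 37 are listed in the deposited counts under symbols that begin with mt-, out of 53677 gene symbols in all. They comprise 13 protein genes, 2 ribosomal RNA (rRNA) genes and 22 transfer RNA (tRNA) genes. Every symbol with this prefix was taken, and the set was chosen with earlier results of these data known. The RNA came from GV oocytes of the mouse, which still have their germinal vesicle and are arrested in meiotic prophase, and the series compared control oocytes (Ctrl, 2 libraries) with oocytes carrying a knockdown of Ell3 (Ell3 KD, 2 libraries). ELL3, the product of the gene, belongs to a family of factors that help RNA polymerase II elongate transcripts. Females of both groups had been given PMSG, a gonadotropin that stimulates follicle growth, at 7.5 IU and 48 h before collection, and each library pooled 5 oocytes. The way the knockdown was made, the strain, the age of the females and whether replicate libraries stem from different animals were not stated in any source used here, so p-values cover no more than the differences among these 4 libraries, which may be technical.

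Both strands of the mitochondrial genome are transcribed by a dedicated polymerase, POLRMT, as long precursors, and the tRNAs that punctuate them are cut out to release the rRNAs and mRNAs. The proteins are subunits of respiratory chain complexes I, III and IV and of the ATP synthase (complex V), which are assembled together with nuclear-encoded partners. Oocytes hold large numbers of mitochondria, which are inherited through the mother. Smart-seq2, the full-length cDNA method used here, primes from poly(A) stretches, and most mitochondrial mRNAs carry only short poly(A) tails.

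The 2 Ctrl libraries summed to 45131278 and 48669267 counts and the 2 Ell3 KD libraries to 89632815 and 65722415, so depth did not overlap between the groups. A count of 0 allows a level of up to 0.0656 CPM (counts scaled to a common library total adjusted by TMM factors) in the shallowest library and 0.0339 CPM in the deepest, with 3 counts as the bound and counting error alone considered. The targeted gene, Ell3, was at 371 and 483 counts in the Ctrl libraries against 255 and 181 in the deeper Ell3 KD libraries, which gave -1.66 ± 0.14 on the log2 scale (SE; edgeR adjusted p = 6.04e-10). The summed level of 10 oocyte markers lay between 21282 and 21747 CPM in all 4 libraries, although 3 of them rose, such as Dppa3 (log2 fold change 0.49), and 3 fell, such as Nlrp5 (-0.23) and Gdf9 (-0.20). The summed level of 10 cumulus and granulosa cell markers was 25.4 and 23.9 CPM in Ctrl, against 24.0 and 25.9 in Ell3 KD, and that of 8 theca and stroma markers 6.10 and 5.87 CPM against 5.33 and 5.57. Of the 6 blood markers, all 4 haemoglobin genes were at 0 in every library, and Alas2, the only one tested, had 8 and 18 counts in Ctrl against 6 and 3 in Ell3 KD and fell (log2 fold change -2.18 ± 0.75, edgeR adjusted p = 0.0203). Mitochondrial genes together took 25849 and 28412 of the Ctrl counts and 73408 and 53575 of the Ell3 KD counts.

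Copies of mitochondrial DNA in the nuclear genome limit how reads can be assigned to these genes, so sequences of 2 such copies are shown first. In GENCODE M21 on GRCm38, the build that mm10 names, 7 annotated nuclear genes lie side by side on chromosome 1 (chr1:24611535-24616197) and copy the stretch of the mitochondrial genome from mt-Co1 to mt-Nd4. A stretch of mt-Atp6, which encodes a subunit of the ATP synthase, is shown with its copy Gm10925 because they are identical over 678 aligned bases. The bases are 301 to 380 of each gene, counted from 1 at its 5′ end, at chrM:8227-8306 on the plus strand and chr1:24614272-24614351 on the minus strand, and no base differs.
mt-Atp6: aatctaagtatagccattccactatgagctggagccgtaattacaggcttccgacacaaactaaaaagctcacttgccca
Gm10925: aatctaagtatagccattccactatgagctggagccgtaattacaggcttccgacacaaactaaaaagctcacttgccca

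The same 80 bases of mt-Cytb, which encodes cytochrome b of complex III, are shown with the copy Gm11410 on chromosome 4 as a contrast. They lie at chrM:14445-14524 and chr4:80004289-80004368, both on the plus strand, and capitals mark the 8 bases that differ.
mt-Cytb: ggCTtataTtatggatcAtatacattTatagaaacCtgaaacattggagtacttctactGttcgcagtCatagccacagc
Gm11410: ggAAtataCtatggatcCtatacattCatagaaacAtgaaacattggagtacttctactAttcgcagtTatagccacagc

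A read of 150 bases fits both places equally where the whole window is identical. The reads were paired, and the mate was not considered, so the shares below apply to single reads. For mt-Atp6 and mt-Co2, 99.4% of all 150-base windows had an identical match among the annotated nuclear transcripts, and the share was 99.8% for mt-Co3, 97.0% for mt-Nd3 and 98.0% for mt-Nd4l. For mt-Nd4 it was 59.2% and for mt-Co1 23.6%. No window of mt-Rnr1, mt-Rnr2, mt-Nd1, mt-Nd2, mt-Nd5, mt-Nd6, mt-Cytb or mt-Atp8 had such a match. mt-Atp8 lies between copied genes, and the 233 bases between Gm10925 and Gm28661 on chromosome 1 hold no annotated transcript and were not searched, since no genome sequence was used. How reads with several matching places were counted was not stated in any source used here.

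The levels per length fell into 2 classes that ran alongside these matches. In Ctrl, mt-Rnr2, the large-subunit rRNA, stood at 150.0 ± 9.93 CPM per kilobase (SD, n = 2 here and below), and mt-Rnr1, the small-subunit rRNA, at 76.6 ± 1.87. Next came mt-Co1, the catalytic subunit of cytochrome c oxidase (complex IV), at 62.2 ± 4.84 CPM per kilobase, and mt-Cytb at 55.9 ± 1.41. The complex I subunit genes followed, with mt-Nd1 at 26.0 ± 0.637, mt-Nd4 at 20.7 ± 0.979, mt-Nd2 at 18.9 ± 0.502, mt-Nd5 at 11.01 ± 0.706 and mt-Nd6 at 6.85 ± 0.201 CPM per kilobase. mt-Nd6 is the only protein gene read from the other strand.

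The remaining 6 protein genes were all below 2 CPM per kilobase in Ctrl. mt-Co3 and mt-Co2, the other core subunits of complex IV, stood at 1.74 ± 0.303 and 0.928 ± 0.363, and mt-Atp6 stood between them at 1.31 ± 0.289. mt-Atp8, the second mitochondrial subunit of the ATP synthase, had 0.516 ± 0.0281 CPM per kilobase, and the complex I genes mt-Nd4l and mt-Nd3 had 0.352 ± 0.0810 and 0.0314 ± 0.0444. Apart from mt-Atp8, these are the 5 genes whose windows almost all have an identical nuclear match. The part of the copies in the levels was not tested.

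Among neighbours in this order, only mt-Atp6 and mt-Co2 had overlapping ranges over the 2 Ctrl libraries. In Ell3 KD the ranges of mt-Nd2 and mt-Nd4 overlapped, as did those of mt-Co3 and mt-Atp6, and the other neighbouring pairs did not. In an alternative chosen after seeing the data, all counts of a gene were divided by its number of windows without an identical nuclear match. So scaled, mt-Nd4 had 56.7 CPM per 1000 such windows in Ctrl. The value was 64.3 for mt-Cytb, 90.2 for mt-Co1, 90.8 for mt-Rnr1 and 165.6 for mt-Rnr2. On this scale mt-Nd4 stood above mt-Nd1 (30.7), mt-Nd2 (22.1), mt-Nd5 (11.99) and mt-Nd6 (9.61). That place rests on the assumption that matching windows gave no counts, which was not tested, since the counts hold no positions of reads.

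**Figure D1:**
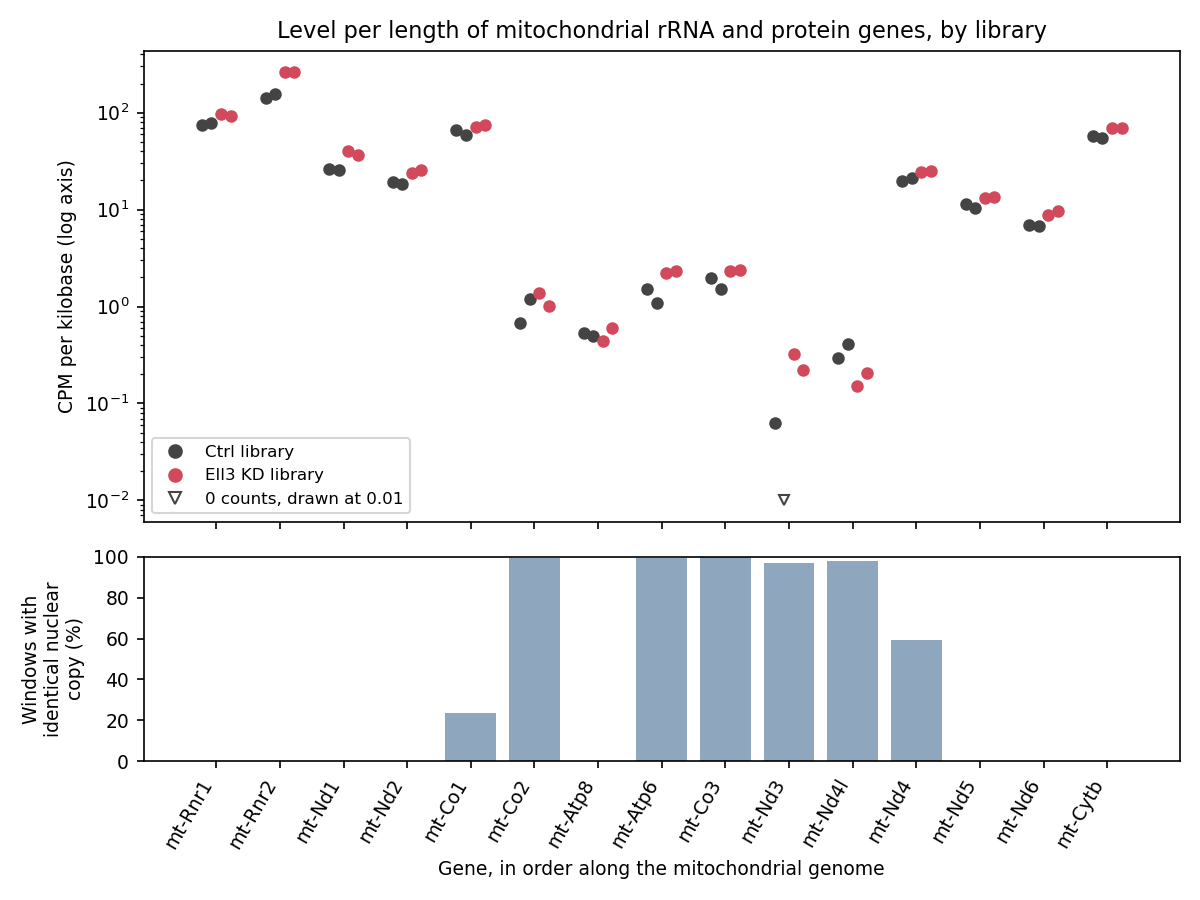
Upper panel: level of each mitochondrial rRNA and protein gene in CPM per kilobase (log axis), one point per library, with genes in order along the mitochondrial genome; lower panel: percent of 150-base windows with an identical match in an annotated nuclear transcript. The genes from mt-Co2 to mt-Nd4l lie lowest, and all of them but mt-Atp8 have matches over at least 97.0% of their windows.

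The nuclear copies received counts on the same scale as their mitochondrial counterparts. Gm10925 had 90 and 136 counts in the Ctrl libraries and 290 and 181 in those of Ell3 KD, where mt-Atp6 had 47, 37, 133 and 103. Gm28661 had 66, 55, 134 and 104 counts in the same order of libraries, against 21, 40, 83 and 45 for mt-Co2. Gm28437 had 81, 93, 242 and 139 counts, against 70, 59, 162 and 120 for mt-Co3. Over the 5 pairs that also take in mt-Nd3 with Gm28438 and mt-Nd4l with Gm10222, the copies held 1.79 and 2.09 times the counts of the mitochondrial genes in Ctrl and 1.81 and 1.603 times in Ell3 KD, so the groups overlapped.

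The copies of genes with a smaller share of matching windows took few counts beside their counterparts. Gm29216, the copy of part of mt-Co1, had 88, 118, 235 and 190 counts, and Gm28439, the copy of part of mt-Nd4, had 19, 20, 69 and 53. Gm13340, which is 97.6% identical to mt-Co1 over the aligned bases, had at most 14 counts, and Gm11410 had none in any library. Of the 6 copies that passed the filter on low counts, 0 were called by edgeR at an adjusted p under 0.05, 1 (Gm28439) had an unadjusted p under 0.05, and DESeq2 and limma-voom likewise called 0. Without the second Ctrl library, Gm10925 was called (edgeR adjusted p = 0.0218), and Gm28439 was called with the length and GC trend of all genes removed (log2 fold change 0.98, edgeR adjusted p = 0.0480). Their log2 fold changes ran from 0.29 ± 0.26 for Gm28661 to 0.96 ± 0.40 for Gm28439 (SE; edgeR adjusted p = 0.390 and 0.0533).

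**Figure D2:**
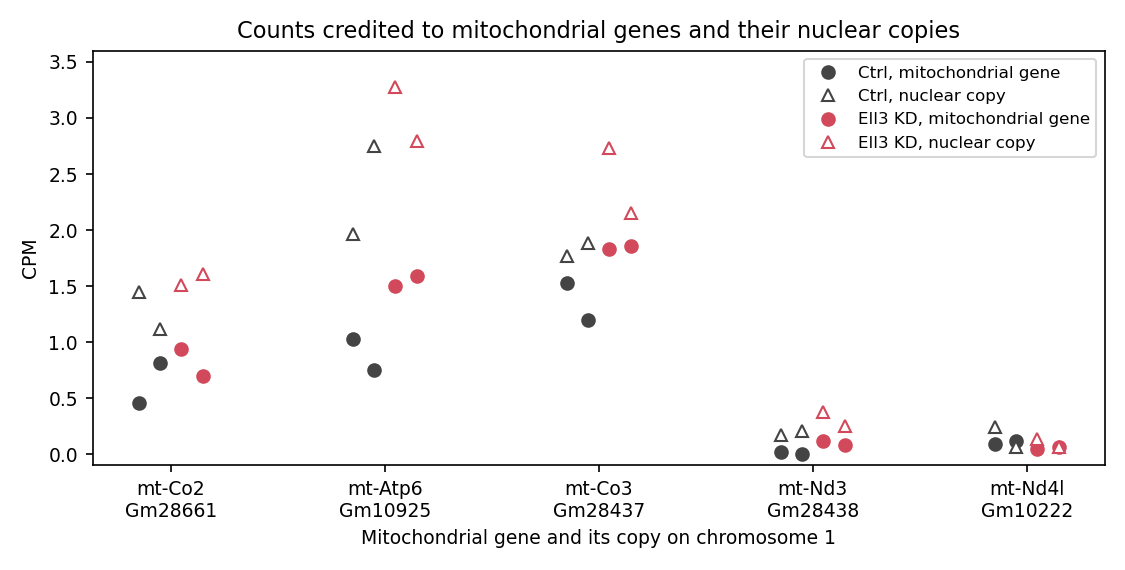
CPM of 5 mitochondrial genes (filled circles) and of their copies on chromosome 1 (open triangles), one point per library, grey for Ctrl and red for Ell3 KD. Copies and mitochondrial genes lie on the same scale, and over the 5 pairs the copies held between 1.603 and 2.09 times the counts.

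In Ell3 KD oocytes, mitochondrial transcripts made up a larger share of the counts than in Ctrl oocytes. They took 0.0573% and 0.0584% of all counts in Ctrl, against 0.0819% and 0.0815% in Ell3 KD. The ratio was 1.41 and the groups did not overlap (exact permutation test, two-sided p = 0.333, the smallest that 2 against 2 libraries can give). Of the 37 genes, 18 had a count in at least 1 library, and 12 passed the filter on low counts and were tested. Of these 12, 10 rose, 0 fell and 2 were not called, and all 12 had a higher mean in Ell3 KD (edgeR quasi-likelihood test, adjusted p under 0.05 over all 17879 genes tested). Over all genes tested, 21.1% were called higher and 21.8% lower.

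The median log2 fold change of the 12 genes was 0.38, with a range of 0.23 to 0.80, beside a median of -0.0024 over all genes tested. For 11 of the 12, both Ell3 KD libraries lay above both Ctrl libraries, which was the case for 35.0% of all genes tested, while 35.7% had both Ell3 KD libraries below. In pooled oocytes, a change in the RNA of every oocyte and a larger change in some of them cannot be told apart. The same holds for more mitochondria and more RNA in each. Shares and CPM are relative to the other counts of a library, so the amount of mitochondrial RNA per oocyte was not measured. Summed cumulus and granulosa markers overlapped between the groups, although Inha, which encodes a subunit of inhibin made by granulosa cells, rose from 0.941 and 1.13 to 2.18 and 2.47 CPM (log2 fold change 1.16 ± 0.24, edgeR adjusted p = 3.63e-04). It was the only one of 6 such markers tested that was called, and the median over the 6 was -0.03. Of 5 theca and stroma markers tested, Dcn alone was called, at 1.12 ± 0.27 (1.22e-03), while the median over the 5 was -0.45, with Cyp11a1 at -0.45 and Acta2 at -0.70, both not called. The part of other cells in the mitochondrial values was not tested.

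Both rRNA genes rose. The level of mt-Rnr2 was 226.2 and 248.4 CPM in Ctrl and 414.8 and 414.3 CPM in Ell3 KD, a 1.75-fold difference in means. Both Ell3 KD libraries stood far above both Ctrl libraries, with a log2 fold change of 0.80 ± 0.04 (SE; edgeR adjusted p = 2.29e-15). mt-Rnr1 had 71.9 and 74.4 CPM in Ctrl and 93.2 and 89.0 CPM in Ell3 KD, and rose by 0.32 ± 0.04 on the log2 scale (± SE; edgeR adjusted p = 1.97e-06). The 2 rRNA genes are neighbours on the same strand, mt-Rnr1 at chrM:70-1024 and mt-Rnr2 at chrM:1094-2675.

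All 5 complex I genes that were tested rose. mt-Nd1, the first mRNA after the rRNAs on the genome (chrM:2751-3707), had 25.3 and 24.4 CPM in Ctrl and 38.3 and 35.2 CPM in Ell3 KD. Its log2 fold change was 0.57 ± 0.06 (edgeR adjusted p = 5.90e-08), between those of mt-Rnr2 and mt-Nd2. mt-Nd2, the next protein gene, had 20.04 and 19.3 CPM in Ctrl and 24.8 and 26.8 CPM in Ell3 KD, a log2 fold change of 0.39 ± 0.07 (SE; edgeR adjusted p = 6.08e-05). Both encode membrane subunits of the proton-pumping arm of complex I.

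mt-Nd4 and mt-Nd5, further along the genome, had the smaller log2 fold changes of the complex I genes. mt-Nd4 had 27.5 and 29.4 CPM in Ctrl and 33.5 and 34.4 CPM in Ell3 KD, with a log2 fold change of 0.25 ± 0.06 (SE; edgeR adjusted p = 1.32e-03). mt-Nd5 had 21.0 and 19.2 CPM in Ctrl and 24.0 and 24.4 CPM in Ell3 KD, with 0.27 ± 0.07 (edgeR adjusted p = 2.88e-03). mt-Nd6, from the other strand, had 3.63 and 3.48 CPM in Ctrl and 4.58 and 5.04 CPM in Ell3 KD, and its log2 fold change of 0.43 ± 0.15 (SE; edgeR adjusted p = 0.0215) rested on 166 to 406 counts per library. The call of mt-Nd6 was lost without the second Ctrl library (edgeR adjusted p = 0.0726) and without the second Ell3 KD library (0.142), by DESeq2 (adjusted p = 0.115) and after thinning to the smallest total (edgeR adjusted p = 0.0542), and that of mt-Nd5 without the second Ctrl library (0.0522).

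The single complex III gene, mt-Cytb, had 65.1 and 62.9 CPM in Ctrl and 79.5 and 80.3 CPM in Ell3 KD, and rose by 0.32 ± 0.04 on the log2 scale (± SE; edgeR adjusted p = 2.02e-06). Of the 3 complex IV genes, mt-Co1 rose from 101.4 and 90.8 CPM to 111.0 and 114.5 CPM. Its log2 fold change of 0.23 ± 0.05 (SE; edgeR adjusted p = 1.78e-04) was the smallest of the 12. mt-Co3 had 1.53 and 1.19 CPM in Ctrl, against 1.83 and 1.86 in Ell3 KD, and mt-Co2 had 0.459 and 0.810 CPM in Ctrl and 0.937 and 0.696 in Ell3 KD.

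These 2 genes were not called. The 95% interval of the log2 fold change ran from -0.06 to 0.94 for mt-Co3 and from -0.41 to 1.14 for mt-Co2, so values as large as those of the called genes lie inside both. Added to its copy Gm28661, mt-Co2 had 1.90 and 1.92 CPM in Ctrl and 2.45 and 2.30 CPM in Ell3 KD. mt-Co3 together with Gm28437 had 3.30 and 3.08 CPM in Ctrl and 4.56 and 4.004 CPM in Ell3 KD. Neither pair of sums overlapped between the groups. Of all genes tested, 35.0% had both Ell3 KD libraries above both Ctrl libraries and 35.7% had both below. At lower counts, mt-Nd3 with Gm28438 was also higher in Ell3 KD without overlap. The sum of mt-Nd4l and Gm10222 was lower, at 0.328 and 0.182 CPM in Ctrl and 0.181 and 0.124 CPM in Ell3 KD.

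For the ATP synthase, mt-Atp6 had 1.03 and 0.749 CPM in Ctrl and 1.501 and 1.59 CPM in Ell3 KD, a log2 fold change of 0.80 ± 0.28 (SE; edgeR adjusted p = 0.0232). Its interval was wide, 0.22 to 1.38. The call was lost without the second Ctrl library (edgeR adjusted p = 0.144), without the first Ell3 KD library (0.0711), without the second (0.102) and by DESeq2 (adjusted p = 0.126). Together with Gm10925, mt-Atp6 had 3.00 and 3.504 CPM in Ctrl and 4.77 and 4.39 CPM in Ell3 KD.

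**Figure D3:**
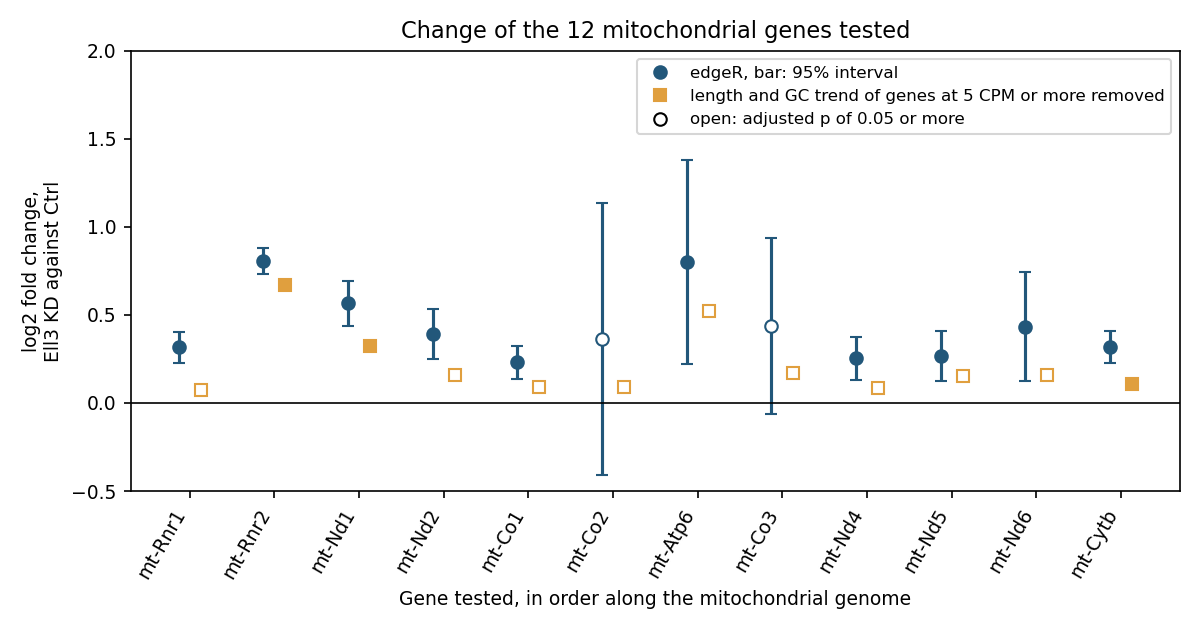
Log2 fold change of Ell3 KD against Ctrl for the 12 mitochondrial genes tested, in order along the genome, from edgeR with 95% intervals (circles) and after removal of the length and GC trend of genes at 5 CPM or more (squares); open symbols have an adjusted p of 0.05 or more. mt-Rnr2 stands at 0.80 and mt-Nd1 at 0.57, and mt-Rnr2, mt-Nd1 and mt-Cytb keep filled squares.

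Gene length and base composition also moved with the comparison across all genes. The 12 genes were short, with a median of 997.5 bases against 2826 over the tested genes with a value, and poor in G and C, at 34.1% to 39.9% against a median of 48.8%. Among genes at 5 CPM or more, the 2320 shorter than 2000 bases had a median log2 fold change of 0.10, and the 3463 of 4000 bases or more had -0.028. Removing this trend, in an alternative chosen after seeing the data, took between 0.11 and 0.28 off the log2 fold changes of the 12 genes. The means of mt-Atp6, mt-Co2, mt-Co3 and mt-Nd6 lay below 5 CPM, so these genes took no part in fitting that trend.

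With the trend removed, 3 of the 12 were called higher and 0 lower, at a median of 0.16, while 20.5% of all genes tested were called higher. The called genes were mt-Rnr2 (0.67, edgeR adjusted p = 1.11e-10), mt-Nd1 (0.32, 4.28e-04) and mt-Cytb (0.11, 0.0396). mt-Rnr1 was at 0.07 (edgeR adjusted p = 0.145), and mt-Co1 at 0.09 (0.135). When the trend was instead taken over all genes tested, 10 were called and the median was 0.34.

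The makeup of the mitochondrial counts differed between the groups along with their share of all counts. mt-Rnr2 alone supplied 40.01% and 43.2% of the mitochondrial counts in Ctrl, against 50.1% and 50.02% in Ell3 KD. The ratio of mt-Rnr2 to mt-Rnr1 counts was 3.15 and 3.34 in Ctrl and 4.45 and 4.66 in Ell3 KD. That ratio restates the log2 fold changes of 0.80 for mt-Rnr2 and 0.32 for mt-Rnr1 and is no separate evidence. Neither rRNA gene had an identical match among the annotated nuclear transcripts, while the rest of the nuclear genome was not searched. Without mt-Rnr2, the share of all counts in mitochondrial genes differed by a ratio of 1.21, in place of 1.41.

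Among the protein genes, the ratio of mt-Nd1 to mt-Co1 counts was 0.249 and 0.269 in Ctrl and 0.345 and 0.307 in Ell3 KD. This pair was not planned, and its ratio restates the log2 fold changes of 0.57 for mt-Nd1 and 0.23 for mt-Co1. It is no separate evidence of a difference. As shares of all mitochondrial counts, which hold mt-Rnr2, mt-Co1 went from 17.9% and 15.8% in Ctrl to 13.4% and 13.8% in Ell3 KD, and mt-Cytb from 11.5% and 10.9% to 9.60% and 9.69%. With mt-Rnr2 left out of the total, mt-Cytb took 19.20% and 19.22% in Ctrl and 19.23% and 19.39% in Ell3 KD, mt-Co1 took 29.9% and 27.8% in Ctrl and 26.8% and 27.7% in Ell3 KD, and mt-Nd1 took 7.45% and 7.46% in Ctrl and 9.27% and 8.49% in Ell3 KD. The ratio of mt-Co1 to mt-Cytb counts was 1.56 and 1.44 in Ctrl, next to 1.40 and 1.43 in Ell3 KD, a small difference beside the spread within Ctrl. As a share of all mitochondrial counts, mt-Nd1 overlapped between the groups, at 4.47% and 4.24% in Ctrl and 4.63% and 4.24% in Ell3 KD. For each of the ratios and shares here whose groups did not overlap, the exact permutation p was 0.333, the smallest possible.

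Because Smart-seq2 primes from stretches of A and the rRNAs made up the larger part of the mitochondrial counts, the most A-rich 20 bases of each are shown, with each A in capitals. They lie at chrM:1488-1507 in mt-Rnr2 and chrM:725-744 in mt-Rnr1, both on the plus strand, and hold 16 and 15 A.
mt-Rnr2: AAAAAAAcAAcAAAAtcAAA
mt-Rnr1: AAAAgAAtcAAAcAtAAAAA

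Over their whole length, mt-Rnr2 is 38.2% A and mt-Rnr1 37.8%. The protein genes run from 22.2% in mt-Nd6 to 40.7% in mt-Atp8, with mt-Nd2 at 36.9%. In mt-Atp8 and in mt-Nd2 the most A-rich 20 bases hold 14 A, so such stretches are not particular to the rRNAs. Where priming took place was not tested, since the counts hold no positions of reads.

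**Figure D4:**
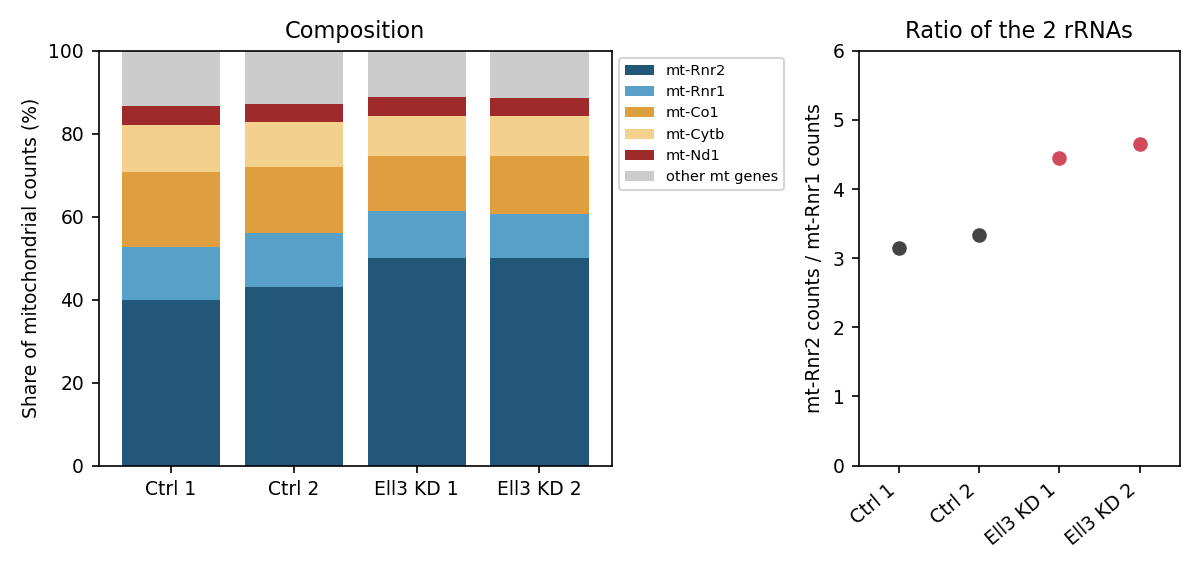
Left: share of each library's mitochondrial counts (percent) by gene; right: ratio of mt-Rnr2 to mt-Rnr1 counts in each library. mt-Rnr2 fills 40.01% and 43.2% in Ctrl and 50.1% and 50.02% in Ell3 KD, and the ratio is 3.15 and 3.34 against 4.45 and 4.66.

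The other 25 genes did not pass the filter on low counts. Without the filter, and by DESeq2, 18 mitochondrial genes were tested, and the genes called higher were 10 and 8. mt-Atp8 had 5 and 5 counts in Ctrl, against 8 and 8 in Ell3 KD, mt-Nd4l had 4, 6, 4 and 4, and mt-Nd3 had 1, 0, 10 and 5. These counts are too few for any difference to be read from them. mt-Atp8 overlaps mt-Atp6 by 43 bases on the same strand, so part of its reads cannot be assigned to either gene.

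Of the 22 tRNA genes, which are 59 to 75 bases long and so shorter than a read, 19 had no count in any library. mt-Tp, the proline tRNA gene, had 3, 5, 9 and 1 counts, mt-Tq (glutamine) a single count in Ell3 KD, and mt-Ts1 (serine) a single count in Ctrl. In sum they had 4 and 5 counts in Ctrl, against 10 and 1 in Ell3 KD. Changes of the tRNAs could not be read from these counts.

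Among the nuclear genes that maintain, transcribe and process mitochondrial DNA and RNA, more fell than rose. Of 69 tested, 9 rose and 25 fell (13.04% and 36.2%, beside 21.1% and 21.8% of all genes tested), with a median log2 fold change of -0.05. By role, 1 rose and 9 fell of 19 genes of mitochondrial DNA maintenance, 1 and 3 of 9 transcription genes, and 7 and 13 of 41 RNA handling genes. Tfam, whose product packages mitochondrial DNA and starts its transcription, had 21.2 and 20.6 CPM in Ctrl and 15.2 and 13.9 CPM in Ell3 KD, a log2 fold change of -0.52 ± 0.08 (SE; edgeR adjusted p = 5.46e-06). Polrmt, the mitochondrial RNA polymerase gene, had 27.1 and 26.7 CPM in Ctrl, against 22.3 and 20.2 in Ell3 KD, a log2 fold change of -0.34 ± 0.07 (2.46e-04). Mterf4, the most abundant transcription gene listed, rose from 214.6 and 210.7 CPM to 230.9 and 232.7 CPM (0.12 ± 0.03, edgeR adjusted p = 3.84e-03). The summed level of the transcription list overlapped between the groups, at 423.5 and 418.7 CPM in Ctrl and 420.3 and 422.5 CPM in Ell3 KD.

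Within RNA handling the genes went both ways. Trmt10c, a subunit of the enzyme that cuts tRNAs out at their 5′ ends, fell from 75.6 and 78.0 CPM to 53.0 and 54.2 CPM (log2 fold change -0.52 ± 0.05, edgeR adjusted p = 1.31e-09). Dhx30, an RNA helicase gene of mitochondrial ribosome assembly, had a log2 fold change of -0.44 ± 0.05. Slirp, whose product stabilises mitochondrial mRNAs with LRPPRC, rose from 30.2 and 32.4 CPM to 43.8 and 42.1 CPM (log2 fold change 0.46 ± 0.06, edgeR adjusted p = 4.51e-07). Grsf1, an RNA-binding protein gene of mitochondrial RNA granules, rose from 32.9 and 32.6 CPM to 43.9 and 45.4 CPM (0.45 ± 0.05, 3.27e-07).

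Among genes of maintenance, Tk2, which encodes the mitochondrial kinase of deoxythymidine and deoxycytidine, fell by 0.41 on the log2 scale (SE 0.04, edgeR adjusted p = 3.94e-08), and Rrm2b, a ribonucleotide reductase subunit gene, rose by 0.20 (SE 0.04, 1.36e-04). Of 7 regulators of mitochondrial biogenesis tested, 5 fell and 1 rose, against 21.8% and 21.1% of all genes tested, and several of these calls were weak. Gabpb1 had an edgeR adjusted p of 0.0498, Esrra (9 and 10 counts in Ctrl, against 5 and 2) lost its call in 7 of 14 alternatives, and Ppargc1b, the one that rose, in 6 of 16. With 1 library left out, 2 to 4 of the 5 kept their calls. Nrf1, a transcription factor of nuclear genes for respiration, had a log2 fold change of -0.25 ± 0.04 (SE; edgeR adjusted p = 9.66e-06), and Gabpa, another such factor, one of -0.90 ± 0.21 (1.05e-03) at 2.93 and 2.81 CPM in Ctrl and 1.52 and 1.56 in Ell3 KD. Ppargc1a, which encodes a coactivator of this programme, had only 8 and 20 counts in Ctrl, against 0 and 1 in Ell3 KD.

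The nuclear-encoded subunits of the respiratory chain, the partners of the mitochondrial proteins, mostly rose. Of 77 tested, 63 rose (81.8%) and 2 fell, where 21.1% and 21.8% of all genes tested were called, with a median log2 fold change of 0.31. By list, the counts were 33 of 38 for complex I and 4 of 4 for complex II, which has no mitochondrially encoded subunit. They were 5 of 9 for complex III, 9 of 10 for complex IV and 12 of 16 for complex V. The lists group Ndufa4 with complex I by its name, and that of complex V includes Atpif1, an ATP synthase inhibitor gene. Cox5b of complex IV had a log2 fold change of 0.53, and Ndufa4 one of 0.48. Uqcrc1 of complex III went the other way, at -0.72. With the length and GC trend of genes at 5 CPM or more removed, 55 rose and 4 fell, at a median of 0.19 (20.5% and 20.8% over all genes tested), while 10 of the maintenance, transcription and RNA handling genes rose and 24 fell.

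**Figure D5:**
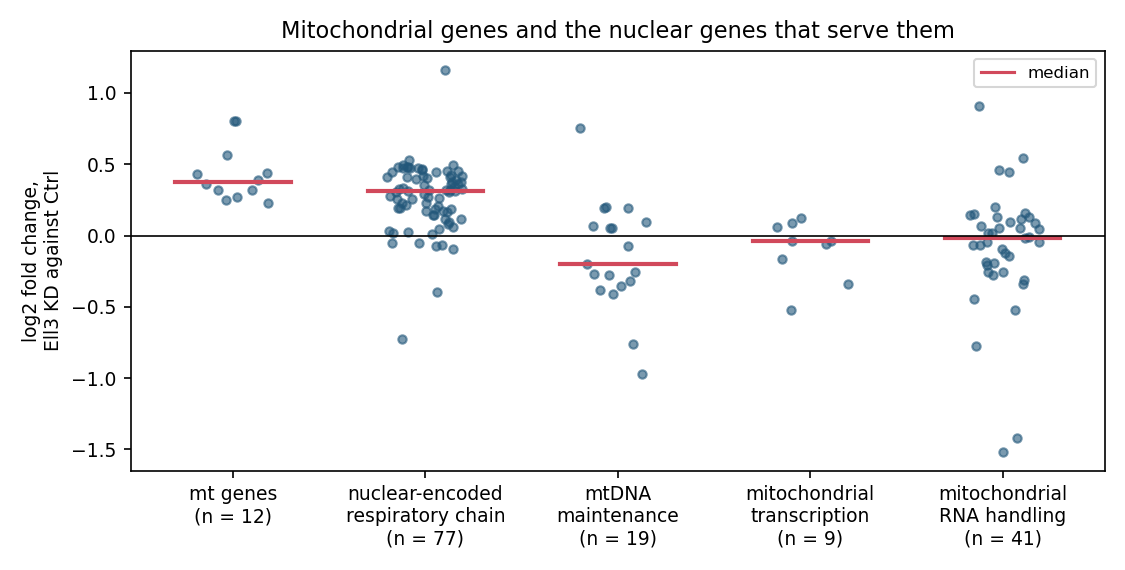
Log2 fold change of Ell3 KD against Ctrl for the mitochondrial genes tested and for nuclear genes of the respiratory chain, of mitochondrial DNA maintenance, of transcription and of RNA handling, one point per gene, with a line at each median. The medians are 0.38 for the mitochondrial genes, 0.31 for the respiratory chain, -0.20 for maintenance, -0.04 for transcription and -0.02 for RNA handling.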

How the data were processed

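Gene counts of 2 Ctrl and 2 Ell3 KD libraries (Smart-seq2, 16 PCR cycles, 150-bp paired ends, per the labels' protocols) were used as the authors deposited them, as raw counts for each symbol. The tools named are HISAT2 2.2.1.0, featureCounts and FastQC 0.11.5, with build mm10, per the submitters' processing notes. The annotation, strand setting and treatment of reads with several matching places are not given in the sources used here, so the origin of reads shared with nuclear copies or overlapping genes is uncertain.

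All genes that passed filterByExpr (17879) were tested with edgeR 4.0.16 in R 4.3.3 (TMM factors, quasi-likelihood, two-sided, no covariates), with Benjamini-Hochberg adjustment and calls at an adjusted p under 0.05. CPM are scaled by the TMM factors. The fits were tested on simulated data drawn with the variation estimated from these same libraries. That test cannot show whether this variation is only technical. Alternatives were DESeq2 1.42.0, limma-voom (limma 3.58.1), other normalizations and filters, thinning, trends removed with mgcv 1.9.3, an assumed variation, and each library left out.

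Coordinates, lengths and sequences came from GENCODE M21 on GRCm38. Nuclear copies were annotated transcripts with a BLAST 2.17.0 match of at least 90% identity over 100 bases. This replaced a match to the genome sequence, which was not used here.

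The text names all mt- genes, Ell3, and copies with at least 10 counts in a library. It draws on the 3 highest and up to 5 called members of each list. Gm13340 is among the copies, and Gm11410, at 0 counts, was singled out for its sequence. The members and lists were chosen with earlier results of these data known.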

Additional observations from a re-analysis of the deposited data

How the results depend on the processing

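Over 16 alternatives of the fit, no called mitochondrial gene changed direction, and the log2 fold change of mt-Rnr2 lay between 0.67 and 0.88. The 10 genes called higher became 0 under an assumed coefficient of variation of 0.2, where mt-Rnr2 had an edgeR adjusted p of 0.0508. They became 3 with the length and GC trend of genes at 5 CPM or more removed, 8 by DESeq2 and 9 after thinning to the smallest total, and leaving out a library gave 7 to 10. None was called lower in any alternative run. The median of 0.38 became 0.16 with that trend removed and 0.34 with library totals only, and lay between 0.35 and 0.39 with a library left out. Under the same assumed variation the calls kept by the same genes were 1 of 9 maintenance, transcription and RNA handling genes higher and 3 of 25 lower, and 1 of 63 respiratory chain genes higher and 0 of 2 lower. Leaving out a library gave 6 to 10 higher and 20 to 25 lower of the former, and 57 to 61 higher and 2 to 3 lower of the latter. The latter had 4 lower with either trend removed and 6 with library totals only. Sdhd of complex II went from 0.10 to -0.0060 with the trend of genes at 5 CPM or more removed.

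The share ratio of 1.41 became 1.21 for protein genes only, 1.58 for rRNA genes only, 1.21 without both rRNAs, 1.45 with TMM-scaled totals and 0.663 for tRNA genes only, on 1 to 10 counts per library. It lay between 1.40 and 1.43 with a library left out. Same-numbered libraries are not said to share an animal or day, and their deviations correlated at 0.0294. With a replicate block, 10 mitochondrial genes were called higher. The cause of these differences was not tested. The 25 genes that did not pass the filter had at most 10 counts in any library.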
